A study of Homo sapiens with 8 samples.

Results

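Transfer RNA carries more kinds of chemical modification than any other RNA class, and each is written by a dedicated enzyme or enzyme complex. Modifications at the wobble base and beside the anticodon tune how codons are read, while those in the body of the molecule stabilise its fold. Some of the enzymes work in the cytosol or nucleus, some in mitochondria, and several act only together with a partner protein.

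The tRNA modification enzymes described here are 53 of the 19892 genes listed in the deposited table. They were taken by symbol: all genes whose symbols begin with TRMT, TRMO, NSUN, PUS, TRUB, THUMPD, QTRT or CTU, the numbered ELP genes of Elongator, the dihydrouridine synthases DUS1L, DUS3L and DUS4L, and METTL1, WDR4, ALKBH8, FTSJ1, TYW1 and TRIT1. The rule uses symbols and no measured value, though it was set with earlier results of these data known. All 53 are protein-coding. A few of them, such as NSUN4 and NSUN5, belong to the same families but are best known for acting on ribosomal RNA. Some of their reads may belong to copies or overlapping genes. RefSeq lists a pseudogene named after 10 of the 53, and 16 of the 53 overlap another gene of the table.

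The libraries came from MDA-MB-231, an established human breast cancer line that is triple-negative and mesenchymal in type. Cells had received either a negative control siRNA or an siRNA against ADAR1, the RNA-editing enzyme that turns adenosine into inosine in double-stranded RNA. For each siRNA there were 2 libraries of ribosome-protected fragments of 30 nt (Ribo-seq) and 2 libraries of RNA fragments of 40 to 60 nt (Input), 8 libraries in 4 groups. The siRNA sequence, how many siRNAs were mixed and when cells were harvested were not given in the sources used here, and no rescue or second cell line enters these comparisons.

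Input libraries held 15732757 to 17153716 estimated counts each, and Ribo-seq libraries held 10492223 to 14875465. ADAR itself stood at 106 and 110 TPM (a level scaled to transcript length and to the library's sum) in control Input and at 14.8 and 30.6 TPM after ADAR1 siRNA, which is 13.7% and 28.3% of the control mean. Its footprints stood at 19.1 and 20.3 TPM against 1.55 and 8.41 TPM, or 7.87% and 42.7% of control, so the 2 knockdown libraries differed in how much ADAR remained. With 2 libraries a group the log2 fold change of ADAR was -2.26 ± 0.32 in Input (SE, edgeR adjusted p = 0.0527) and -2.04 ± 0.47 in Ribo-seq (0.0485). Genes typical of the line were abundant in all Input libraries (VIM 4441 to 4694 TPM, CD44 587 to 775 TPM). Of 7 such genes CAV1 alone passed a test, with more footprints after ADAR1 siRNA (log2 0.67 ± 0.14, edgeR adjusted p = 0.0422). VIM footprints were lower but did not pass (-0.78 ± 0.20, edgeR adjusted p = 0.0583). ESR1, PGR, CDH1, FOXA1 and the immune markers PTPRC and CD3E were at or below 0.377 TPM in Input. Of the genes held to be low in this line, ERBB2 (29.5 to 35.5 TPM), EPCAM (13.3 to 21 TPM) and GATA3 (5.84 to 8.46 TPM) were detected in every Input library. The 11 immune, endothelial and fibroblast markers reached at most 4.32 TPM in Input (PECAM1), and of these PDGFRB alone passed a test, with 0.833 and 0.579 TPM in control Ribo-seq against 1.39 and 1.70 TPM (log2 1.22 ± 0.28, edgeR adjusted p = 0.0485). In cultured bulk cells, a lower level may reflect fewer cells with the transcript or less of it per cell, and these cannot be told apart. The labels do not say that replicates were separate cultures, so each p-value measures only the spread between these libraries.

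In control cells most of the tRNA modification enzymes were expressed, and their mRNA levels spanned from a mean of 0.222 TPM to 274 TPM. Among the 50 members with a mean count of at least 50 in both assays, the median control Input level was 26 TPM, against 36.5 TPM over the 9736 genes that met the same minimum. The most abundant mRNA was TRMT112, the small activating partner of several tRNA methyltransferases, at 275 and 274 TPM in the 2 control libraries. NSUN2, the main 5-methylcytosine writer of cytosolic tRNA, followed at 120 and 125 TPM. FTSJ1, which methylates the ribose of anticodon-loop nucleotides, stood at 101 and 107 TPM, and TRMT10C, a subunit of mitochondrial RNase P that also methylates mitochondrial tRNA, at 70.8 and 66 TPM. The control values of these 4 genes did not overlap each other, whereas those of TRMT10C overlapped those of the next gene, TRMT1, at 64.8 and 67.6 TPM.

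At the other end were CTU1, the catalytic subunit of wobble-uridine thiolation, at 5.01 and 4.94 TPM, and NSUN3, the mitochondrial tRNA-Met methyltransferase, at 5.85 and 6.31 TPM. DUS4L, a dihydrouridine synthase, had 7.28 and 8.41 TPM, and TRMT44, a ribose methyltransferase of serine tRNA, 9.17 and 7.36 TPM. The control values of DUS4L and TRMT44 overlapped, so their order is not set. The members under the count minimum were NSUN7 (2.42 and 2.37 TPM), PUS10 (2.76 and 3.73 TPM) and TRMT9B (0.228 and 0.216 TPM).

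Translational efficiency (TE) is the authors' deposited ratio of Ribo-seq TPM to Input TPM for libraries with the same siRNA and number. Its control median was 0.45 over the 50 members and 0.403 over the 9736 genes, and 29 of the 50 lay above the latter. A control TE above 1 was found for 6 members: TRMT112 (4.94 ± 0.35, SD, n = 2), CTU1 (1.86 ± 0.22), ELP4 (1.41 ± 0.36), ELP2 (1.18 ± 0.07), TRUB1 (1.09 ± 0.16) and NSUN3 (1.01 ± 0.20). Among the lowest were DUS1L (0.0398 ± 0.0126), ALKBH8 (0.181 ± 0.013) and TRMT2B (0.222 ± 0.022). Thus DUS1L mRNA, at 49.4 and 47.6 TPM, carried 2.4 and 1.47 TPM of footprints, whereas ELP2 mRNA, at 13.5 and 13.9 TPM, carried 15.3 and 17.1 TPM. The transcript length behind TPM differed between the assays for the same gene: counts per TPM in Ribo-seq over Input, relative to the median gene, ran from 0.362 for PUS7L to 2.19 for QTRT1. TE levels between genes depend on that. Within an assay the same quantity also varied between libraries, over 47 members by up to 1.11 times in Input (THUMPD2) and 1.25 times in Ribo-seq (TRMT13), and by at most 1.02 times for TRMT5, TRMT10C and QTRT2. Deposited TPM and TE of some members therefore carry that variation between libraries. For TRMT112, RefSeq lists 8 pseudogenes, and the gene overlaps ESRRA and PRDX5. As 4 of its 8 counts were also fractional, its level is uncertain.

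**Figure D1:**
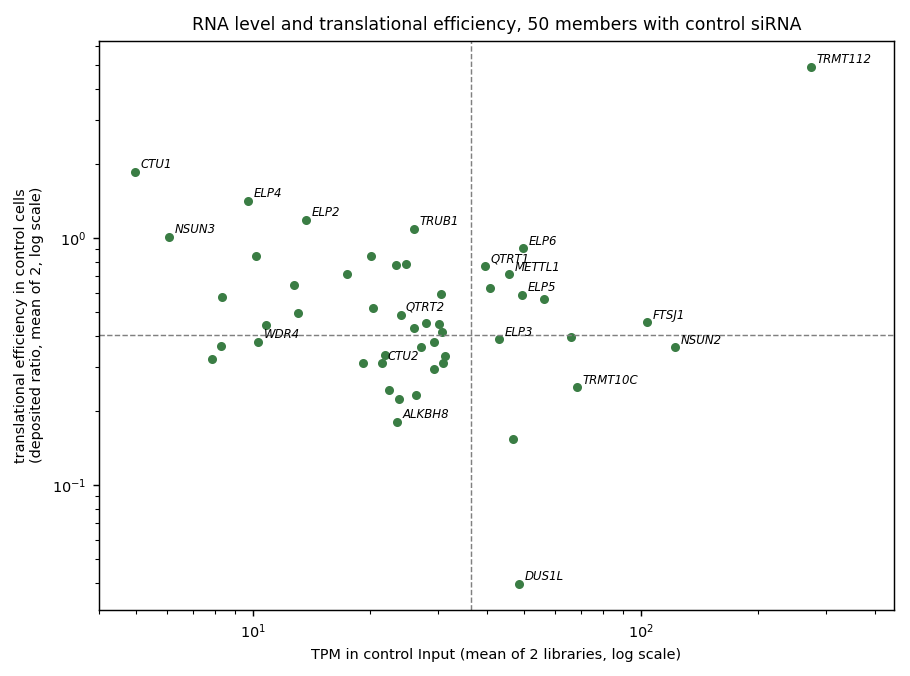
Control TE (the deposited ratio, mean of 2) against control Input TPM (mean of 2 libraries), both axes logarithmic, 1 point per tRNA modification gene with a mean count of at least 50 in both assays (50 genes). Dashed lines mark the medians of the 9736 genes that met the same minimum, 36.5 TPM and a TE of 0.403; TRMT112 lies alone at the upper right with a TE of 4.94, and DUS1L lies lowest at 0.0398.

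The mRNA levels of the tRNA modification enzymes showed no change after ADAR1 siRNA that passed the test. All 53 were tested, and 0 had an adjusted p under 0.05 in the quasi-likelihood test of edgeR, adjusted by Benjamini-Hochberg over all genes, where 0.253% of 12644 genes were called in either direction. The lowest adjusted p was 0.0732, for PUS7L. At an unadjusted p under 0.05 there were 12 members, 7 higher and 5 lower, or 22.6% against 25.3% of all genes. limma-voom called 0 members, and 30 of 12644 genes. DESeq2 called 1 of the 50 to which it gave an adjusted p, PUS7L (2%, against 4.18% of all genes). The median log2 fold change was 0.07 over the members and 0.00 over all genes. In 16 members (30.2%, against 29.2% of all genes) both knockdown libraries had a higher TPM than both control libraries, and in 9 (17%, against 27.9%) both were lower.

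PUS7L, a relative of the pseudouridine synthase PUS7, had 13.7 and 12.5 TPM in control Input and 19.0 and 16.3 TPM after ADAR1 siRNA. The groups did not overlap, and the log2 fold change was 0.41 ± 0.08 (SE). ALKBH8, which methylates the wobble uridine after Elongator has acted, had 24.2 and 22.9 TPM against 31.7 and 28.2 TPM, a log2 difference of 0.35 ± 0.09 (edgeR adjusted p = 0.0878). THUMPD3, a guanosine methyltransferase that needs TRMT112, and THUMPD1, the adaptor of the tRNA acetyltransferase NAT10, had differences of 0.36 ± 0.11 and 0.27 ± 0.08 (edgeR adjusted p of 0.125 and 0.126). In each of these the knockdown libraries lay above the control libraries, which was a condition for choosing them as RNA differences.

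On the lower side, TRMT2A, the uridine methyltransferase of the T loop, had 25.2 and 27.5 TPM in control Input against 20.8 and 19.3 TPM, a log2 difference of -0.41 ± 0.10 (edgeR adjusted p = 0.0876). DUS1L had 49.4 and 47.6 TPM against 37.2 and 36.4 TPM, with -0.35 ± 0.09 (edgeR adjusted p = 0.0882). ELP5, an Elongator accessory subunit, and QTRT1, the catalytic subunit of the enzyme that inserts queuine, differed by -0.28 ± 0.11 and -0.29 ± 0.11 (edgeR adjusted p of 0.168 and 0.18). The 2 groups of these 4 genes did not overlap either, which was again a condition of their choice. TRMT9B, related to ALKBH8 and nearly silent here, had 14 and 15 counts in control Input and 2 and 4 after ADAR1 siRNA, too few to weigh its log2 difference of -2.26 ± 0.57 (edgeR adjusted p = 0.092).

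Footprints on TRMT10C, TRMT5 and QTRT2 fell after ADAR1 siRNA by 2.04-fold, 1.75-fold and 1.71-fold, none of the 52 members tested rose, and 49 did not pass. Those 3 are 5.77% of the members, where 1.67% of 12000 genes were called lower and 1.88% higher, or 3.54% in either direction (edgeR, as above). At an unadjusted p under 0.05, 12 members were lower (23.1%, against 11.3% of all genes) and 1 was higher (1.92%, against 12.7%). The log2 fold change was below 0 in 41 of 52 members (78.8%, against 45.6%), with a median of -0.28 over the members and 0.05 over all genes. In 30 members (57.7%, against 31.2%) both knockdown libraries had a lower Ribo-seq TPM than both control libraries, and in 2 (3.85%, against 23%), DUS4L and PUS7, both were higher.

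The lower median was seen in each count range that held enough members to compare. Over genes with a mean Ribo-seq count of 50 to 200 it was -0.25 for 17 members and 0.06 for all genes. It was -0.24 for 24 members and 0.03 for all genes between 200 and 500 counts, and -0.30 for 7 members and -0.02 for all genes between 500 and 1000. Taken against the control mean, the first ADAR1 siRNA library had a median of -0.26 over 50 members, 41 of them below 0, and 0.06 over all genes. The second had -0.18, with 35 of 50 below 0, and -0.01 over all genes. The first library is also the one in which less ADAR remained, and the part of that difference in the result was not tested.

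**Figure D2:**
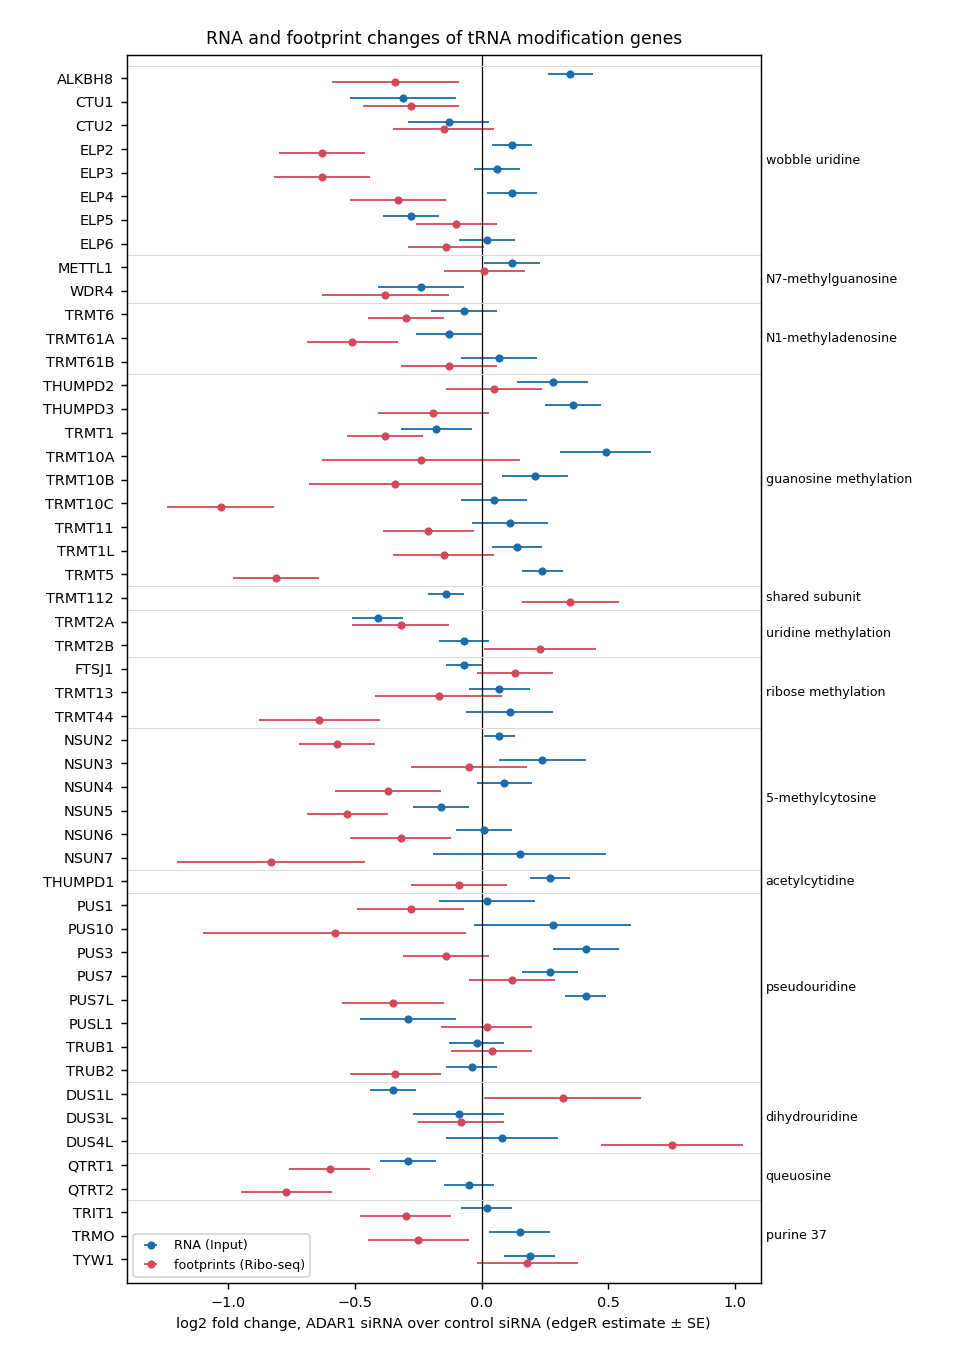
Log2 fold change after ADAR1 siRNA in RNA (Input, blue) and footprints (Ribo-seq, red) for tRNA modification genes, arranged by the modification they make, as the edgeR estimate (point) ± SE (bar) from 2 libraries per group. Blue points scatter around 0 while most red points lie below it, with TRMT10C at -1.03, TRMT5 at -0.81 and QTRT2 at -0.77; TRMT9B, which was not tested in Ribo-seq, is not drawn.

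The 2 guanosine methyltransferases among the called genes act in the same chemistry at different places. TRMT5, which methylates the guanosine beside the anticodon (chromosome 14, 60971441 to 60981690, GRCh38.p14), had Ribo-seq levels of 17.5 and 18.9 TPM in control cells and 9.52 and 9.96 TPM after ADAR1 siRNA. The groups did not overlap, and the log2 fold change was -0.81 ± 0.17 (edgeR adjusted p = 0.0428). For the called genes that separation comes from the same libraries as the test, so it is not added support. Its mRNA was not lower: it had 23.0 and 23.9 TPM against 29.1 and 26.9 TPM, a log2 difference of 0.24 ± 0.08 (edgeR adjusted p = 0.131). TRMT5 overlaps SLC38A6, and without a stated strand setting their reads may not be told apart. TRMT10C (chromosome 3, 101561868 to 101566446) had 15.9 and 18.0 TPM of footprints against 6.01 and 9.73 TPM. The groups did not overlap, with the lowest value in the first knockdown library, and the log2 fold change was -1.03 ± 0.21 (edgeR adjusted p = 0.0422). Its Input values, 70.8 and 66 TPM against 82.2 and 61.2 TPM, overlapped.

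The calls rest on few libraries. Without the second control Ribo-seq library none of the 3 passed (edgeR adjusted p of 0.118 for TRMT10C, 0.316 for TRMT5 and 0.395 for QTRT2). Without the first control library TRMT5 and QTRT2 did not pass (0.0874 and 0.118), and the direction was lower in every such fit. QTRT2 also missed the threshold with limma-voom (0.0576) and with upper-quartile scaling (0.0537).

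Of the other 7 guanosine methyltransferases, 6 had Ribo-seq log2 differences between -0.38 and -0.15 and THUMPD2 had 0.05, and none passed. TRMT1, which dimethylates a guanosine at the inner corner of the tRNA, had 25.6 and 27.0 TPM against 17.3 and 21.0 TPM, or -0.38 ± 0.15 (edgeR adjusted p = 0.152). TRMT10A, the cytosolic relative of TRMT10C, had 3.62 and 5.85 TPM against 2.12 and 5.51 TPM, which overlapped. The TE difference was below 0 in all 9 guanosine methyltransferases, with a median of -0.52, where 42.7% of all genes were below 0.

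Queuosine is a hypermodified guanosine at the wobble position, made by exchanging the base for queuine with the heterodimer of QTRT1 and QTRT2. Both subunits had fewer footprints after ADAR1 siRNA. QTRT2 (chromosome 3, 114056737 to 114088422) had 11.1 and 12.4 TPM in control Ribo-seq and 6.00 and 7.03 TPM after ADAR1 siRNA, a log2 fold change of -0.77 ± 0.18 (edgeR adjusted p = 0.049). QTRT1 had 29.2 and 31.8 TPM against 16.9 and 20.9 TPM, with -0.60 ± 0.16 (edgeR adjusted p = 0.0616), which did not pass. Groups were apart for both subunits, again in the same libraries as the tests. In Input, QTRT1 had 37.8 and 41.5 TPM against 33.4 and 32.2 TPM, or -0.29 ± 0.11 (edgeR adjusted p = 0.18). QTRT2 had 22.5 and 25.5 against 25.1 and 21.8 TPM, which overlapped, or -0.05 ± 0.10 (0.778). Whether the subunits differ was not tested.

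**Figure D3:**
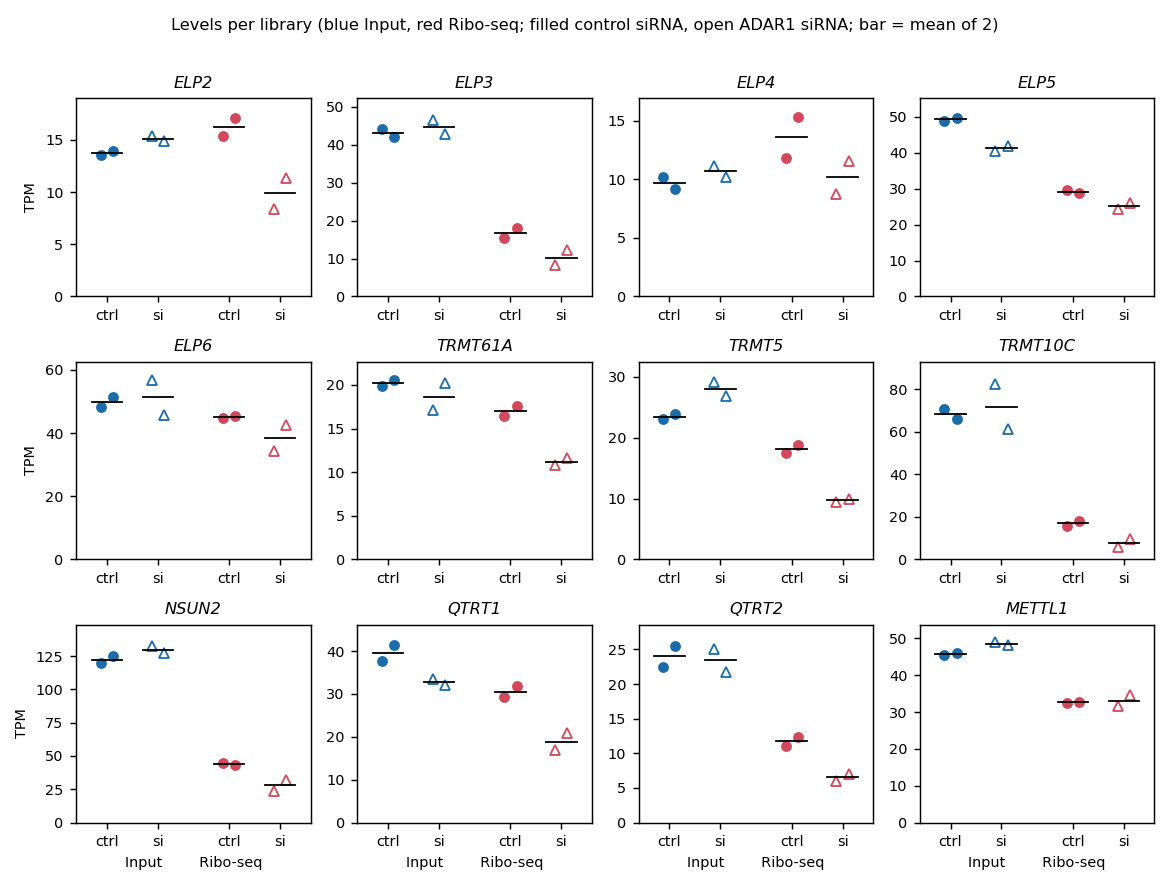
TPM in every Input and Ribo-seq library for selected tRNA modification genes, 1 marker per library, Input in blue and Ribo-seq in red, control siRNA as filled circles (ctrl) and ADAR1 siRNA as open triangles (si), with linear axes from 0 and horizontal bars at the means of 2 libraries. In Ribo-seq the ADAR1 siRNA markers of TRMT10C, TRMT5, QTRT2 and QTRT1 lie below both control markers, while for TRMT10C and QTRT2 the Input markers overlap.

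Elongator is a protein complex that starts the modification of wobble uridines, with ELP3 as its catalytic subunit, ELP2 in its core and ELP4 to ELP6 as an accessory ring. ALKBH8 then methylates the product and CTU1 with CTU2 adds sulfur. All 9 genes of the wobble-uridine group had Ribo-seq log2 differences below 0, from -0.63 to -0.10, and none passed the test. In TE the 9 ran from -0.72 to 0.20, with 6 below 0, where 42.7% of all genes were below 0. ELP3 had 15.4 and 18.1 TPM of footprints in control cells and 8.31 and 12.2 TPM after ADAR1 siRNA, or -0.63 ± 0.19 (edgeR adjusted p = 0.0842). ELP2 had 15.3 and 17.1 TPM against 8.38 and 11.4 TPM, or -0.63 ± 0.17 (edgeR adjusted p = 0.063). In both the groups were apart and the first knockdown library was the lowest.

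In the accessory ring, ELP4 had 11.8 and 15.3 TPM against 8.76 and 11.6 TPM, or -0.33 ± 0.19. ELP5 (-0.10 ± 0.16) and ELP6 (-0.14 ± 0.15) were closer to 0, with approximate 95% intervals of -0.42 to 0.21 and -0.45 to 0.16. Whether these differ from ELP2 and ELP3 was not tested. CTU1 had 8.54 and 9.92 TPM against 6.77 and 7.42 TPM, with mRNA values of 5.01 and 4.94 against 4.11 and 3.98 TPM, so its TE values of 1.70 and 2.01 against 1.65 and 1.86 overlapped. CTU2 overlapped in Ribo-seq, with -0.15 ± 0.20. ALKBH8 footprints were few, at 4.60 and 3.92 TPM against 3.21 and 2.66 TPM, or 84 to 122 counts per library.

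The 5-methylcytosine family and its relatives all had Ribo-seq log2 differences below 0, from -0.83 to -0.05 over 6 genes, and none passed. NSUN2 had 44.9 and 43.5 TPM in control Ribo-seq against 23.8 and 32.0 TPM, or -0.57 ± 0.15 (edgeR adjusted p = 0.0628). Its mRNA was slightly higher in both knockdown libraries, at 132 and 128 against 120 and 125 TPM. NSUN5, which acts on ribosomal RNA, had 19.2 and 19.4 TPM of footprints against 12.0 and 13.9 TPM, or -0.53 ± 0.16 (edgeR adjusted p = 0.0887), and RefSeq lists 2 pseudogenes of it. NSUN3 values overlapped in both assays. The widest difference, -0.83 ± 0.37 for NSUN7, came from 24 to 41 Ribo-seq counts per library.

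Other enzymes that work in pairs did not pass either. METTL1, the catalytic subunit for N7-methylguanosine, had 32.5 and 32.8 TPM of footprints in control cells and 31.7 and 34.6 TPM after ADAR1 siRNA. That is a log2 difference of 0.01 ± 0.16, with an approximate 95% interval of -0.31 to 0.33, and its sign changes under other scalings. WDR4, its non-catalytic partner, had 3.66 and 4.14 TPM against 2.49 and 3.41 TPM, or -0.38 ± 0.25. TRMT61A and TRMT6, the catalytic and the tRNA-binding subunit for N1-methyladenosine, had -0.51 ± 0.18 and -0.30 ± 0.15, each with non-overlapping groups: TRMT61A had 16.5 and 17.6 against 10.9 and 11.6 TPM, and TRMT6 32.5 and 31.2 against 22.2 and 26.6 TPM.

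TRMT112 differed in sign from most of its partners. Its footprints stood at 1426 and 1285 TPM in control cells and 1847 and 1385 TPM after ADAR1 siRNA, which overlapped, with a log2 difference of 0.35 ± 0.19 (edgeR adjusted p = 0.283). Its partners TRMT11, THUMPD3 and ALKBH8 had -0.21 ± 0.18, -0.19 ± 0.22 and -0.34 ± 0.25, and THUMPD2 had 0.05 ± 0.19. None of these passed, and the differences between them were not tested.

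The remaining groups were mixed. Among 8 pseudouridine synthases 5 were below 0 in Ribo-seq, from -0.58 (PUS10, 12 to 28 counts per library) to 0.12, and none passed. PUS7, which modifies tRNA and other RNAs, had 11.1 and 11.0 TPM against 11.2 and 11.2 TPM, or 0.12 ± 0.17. TRUB1, which makes the pseudouridine of the T loop, had 27.2 and 28.9 TPM against 25.9 and 28.0 TPM, or 0.04 ± 0.16. Of the 3 dihydrouridine synthases, DUS4L had the largest positive difference of all members, with 2.53 and 2.51 TPM against 3.93 and 5.38 TPM, or 0.75 ± 0.28 (edgeR adjusted p = 0.146). It rests on 37 to 95 counts per library, and RefSeq lists a readthrough transcript that joins it to BCAP29. FTSJ1 overlapped, with 0.13 ± 0.15, while TRMT44, another ribose methyltransferase, had 3.21 and 2.79 TPM against 1.43 and 2.07 TPM, or -0.64 ± 0.24 (edgeR adjusted p = 0.147). The 3 enzymes of purines beside the anticodon, TYW1, TRIT1 and TRMO, lay between -0.30 and 0.18.

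Footprints relative to mRNA were compared in 1 model over all 8 libraries. In TE 0 of 53 members passed an adjusted p of 0.05 by edgeR's quasi-likelihood test, where 0.0463% of 12953 genes were called (0.0154% higher and 0.0309% lower). limma-voom called 0 members, but also 0 of all 12953 genes. DESeq2 called 5 of the 44 to which it gave an adjusted p, NSUN2, TRMT10C, ELP2, TRMT5 and PUS7L (11.4%, against 10.8% of all genes). At an unadjusted p under 0.05, 11 members were lower (20.8%, against 9.48% of all genes) and 1 was higher (1.89%, against 13.2%). The log2 TE difference was below 0 in 39 of 53 members (73.6%, against 42.7%), with a median of -0.28 over the members and 0.09 over all genes. Both deposited knockdown ratios were below both control ratios in 26 members (49.1%, against 27.9%) and above them in 4 (7.55%, against 24.5%): DUS1L, DUS4L, TRMT112 and TRMT9B, the last on 1 to 2 Ribo-seq counts per library. The RNA, Ribo-seq and TE comparisons share libraries, so they are not separate evidence.

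TRMT5 had the smallest p. Its deposited TE was 0.762 and 0.791 in control cells and 0.327 and 0.371 after ADAR1 siRNA. The log2 difference estimated by edgeR was -1.02 ± 0.16, or 2.02-fold lower (edgeR adjusted p = 0.0534). TRMT10C had TE values of 0.225 and 0.273 against 0.0731 and 0.159, or -1.05 ± 0.25 (edgeR adjusted p = 0.059). Both genes were apart between the groups, and the 2 knockdown values of TRMT10C differed more from each other than those of TRMT5.

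ELP2 had 1.13 and 1.23 against 0.545 and 0.764, or -0.72 ± 0.17 (edgeR adjusted p = 0.058), and NSUN2 had 0.374 and 0.348 against 0.18 and 0.251, or -0.62 ± 0.16 (edgeR adjusted p = 0.0654). QTRT2 had 0.493 and 0.486 against 0.239 and 0.323, or -0.69 ± 0.19 (edgeR adjusted p = 0.0709). The groups were again apart in all 3. PUS7L had -0.74 ± 0.21 (edgeR adjusted p = 0.079), and ALKBH8 had -0.67 ± 0.24 (0.132). Neither passed in RNA (0.41 ± 0.08, adjusted p = 0.0732, and 0.35 ± 0.09, 0.0878) or in Ribo-seq (-0.35 ± 0.20, adjusted p = 0.322, and -0.34 ± 0.25, 0.428). ELP3 had -0.66 ± 0.20 (0.0905).

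On the positive side, DUS1L had TE values of 0.0487 and 0.0308 against 0.0584 and 0.0665, or 0.70 ± 0.27 (edgeR adjusted p = 0.16), on 33 to 76 Ribo-seq counts per library. TRMT112 had 5.19 and 4.69 against 7.0 and 5.69, or 0.52 ± 0.25 (edgeR adjusted p = 0.251). DUS4L had 0.69 ± 0.34 and FTSJ1 0.23 ± 0.15, the latter with overlapping groups. Taken against the mean log2 TE of the control libraries, the first knockdown library had a median difference of -0.57 over 50 members, with 43 below 0. The median of all genes there was -0.17. In the second library the members' median difference was -0.23, with 33 below 0, and that of all genes was 0.03.

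**Figure D4:**
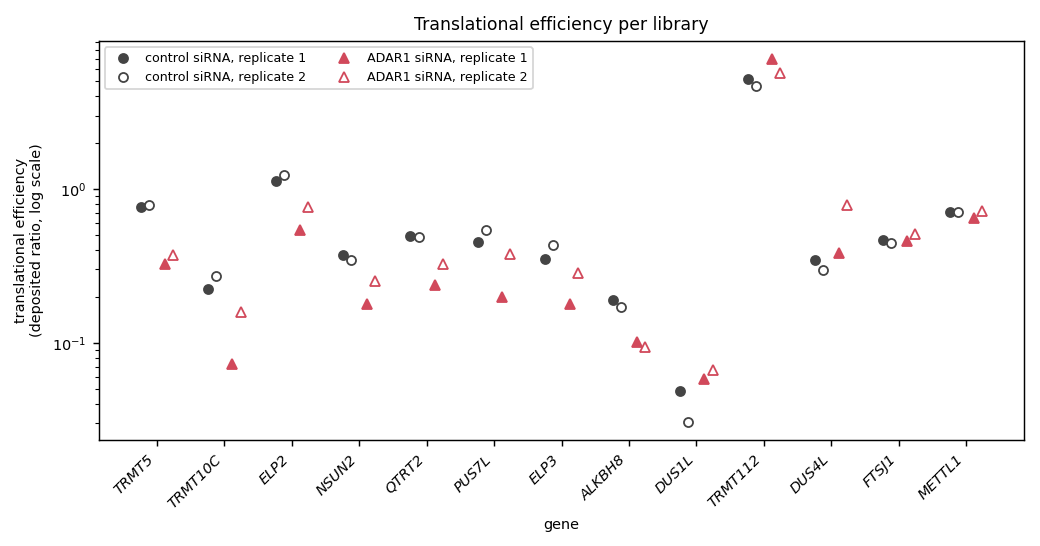
The authors' deposited TE (Ribo-seq TPM over Input TPM) in each of the 4 ratios for selected tRNA modification genes, on a logarithmic axis, 1 marker per ratio (control siRNA as dark circles, ADAR1 siRNA as red triangles, filled for replicate 1 and open for replicate 2). For TRMT5, TRMT10C, ELP2, NSUN2 and QTRT2 both ADAR1 siRNA markers lie below both control markers, and for DUS1L and TRMT112 both lie above.

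Outside this gene set, 45 other genes of tRNA modification were examined, among them the thiolation, threonylcarbamoylation, methylthiolation and deaminase genes. In RNA 0 of 45 were called by edgeR (6 at an unadjusted p under 0.05, 2 higher and 4 lower, where 11.8% and 13.5% of all genes were), with a median log2 fold change of 0.00, as over all genes. In Ribo-seq 10 of 45 were lower and 2 higher at an unadjusted p under 0.05, where 11.3% and 12.7% of all genes were. The log2 fold change was below 0 in 33 of 45 (45.6% of all genes), with a median of -0.24 (0.05 over all genes). By edgeR 1 fell and 0 rose, where 1.67% of all genes were called lower and 1.88% higher. The one that fell was CDK5RAP1, the methylthiotransferase of mitochondrial tRNA, with 13.0 and 14.5 TPM in control Ribo-seq against 5.51 and 7.92 TPM, or -0.93 ± 0.21 (edgeR adjusted p = 0.0459). Its Input values, 48.0 and 50.8 against 50 and 46.3 TPM, overlapped. In TE 0 of 45 were called (8 lower and 0 higher at an unadjusted p under 0.05, where 9.48% and 13.2% of all genes were), 32 were below 0 (42.7% of all genes) and the median was -0.19 (0.09 over all genes). The 2 other subunits of mitochondrial RNase P, named here after their values were seen, had Ribo-seq differences of -0.36 ± 0.18 (PRORP) and -0.11 ± 0.16 (HSD17B10), where TRMT10C had -1.03 ± 0.21. Neither passed (edgeR adjusted p of 0.267 and 0.712), and the difference between the subunits was not tested.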

How the data were processed

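RNA-seq (Input) and Ribo-seq libraries of MDA-MB-231 cells, 2 per siRNA and assay, were grouped by their titles. Per the submitters' processing notes the tools were cutadapt, Bowtie2, STAR and featureCounts with GRCh38 (hg38). Their settings and strand were not given in the sources used here. For each library the authors deposited an estimated count per gene without normalization, 87.0% to 90.1% of them whole. The authors also deposited TPM, and TE, the ratio of Ribo-seq to Input TPM of equal siRNA and number. Gene numbers were matched to symbols for 19669 of 19892 genes.

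Estimated counts were rounded and fitted with edgeR 4.0.16 (R 4.3.3): TMM scaling, filterByExpr, two-sided quasi-likelihood tests, and Benjamini-Hochberg adjustment over all genes at 0.05. RNA and Ribo-seq were fitted over their 4 libraries, and TE as the interaction of assay and siRNA over 8. The SE is the log2 fold change over the root of F. The approximate 95% intervals use a normal quantile of that SE, so they are narrower than the test itself would give. Groups were called overlapping or not on the deposited TPM or TE, which is scaled otherwise than TMM. The code was tested on simulated data. No replicate pair agreed within sampling noise. Counting error alone is larger where counts are few, and no molecular identifiers are mentioned.

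Alternatives were upper-quartile and DESeq2 scaling, DESeq2 1.42.0, limma-voom (limma 3.58.1), other count filters, 1 fit over all libraries, a replicate block and leaving out each library. Numbers pair nothing in the labels. The members and lists were chosen with earlier results of these data known, so no list was tested. Genes named were those past the threshold and up to 4 of smallest p per direction and comparison. The latter needed a mean count of at least 50 and, in RNA and Ribo-seq, groups that did not overlap. The 4 highest and lowest in control level or TE and the subunits of fixed complexes were also named. The others named were chosen after their values were seen. A member counted in the set but not reported here by name is left out of the plots of single genes.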

Additional observations from a re-analysis of the deposited data

How the results depend on the processing

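The members' median log2 fold change stayed below 0 in Ribo-seq and TE in every alternative run, from -0.36 to -0.17 in Ribo-seq and from -0.37 to -0.23 in TE with 1 library left out. Counts of calls depended on the tool, filter, scaling and libraries, and the cause was not tested. The main fits tested 53 members and 12644 genes in RNA, 52 and 12000 in Ribo-seq, and 53 and 12953 in TE. In RNA, calls of members and of all genes were highest without the second ADAR1 siRNA Input library, where 53 members and 12885 genes were tested. In Ribo-seq and TE both were highest without the second ADAR1 siRNA Ribo-seq library. That fit tested 52 members and 12147 genes in Ribo-seq, and 53 and 13310 in TE. In RNA, members called were 1 with DESeq2, 2 with the replicate block and 0 to 24 with 1 library left out. Of all genes, against 32, RNA calls were 436 with DESeq2, 12 in the fit over all 8 libraries, 73 at a mean count of at least 50, 95 without a filter, 1095 with the replicate block, 11 with upper-quartile scaling and 0 to 5420 with 1 library left out. In Ribo-seq, members called, against 3, were 7 with DESeq2, 10 over all 8 libraries, 7 without a filter, 9 with the replicate block and 0 to 19 with 1 library left out. The 19 came without the second ADAR1 siRNA Ribo-seq library and the 0 without the second control library. Of all genes, against 425, Ribo-seq calls were 978 with DESeq2, 1825 over all 8 libraries, 250 with limma-voom, 1693 without a filter, 2102 with the replicate block and 77 to 3415 with 1 library left out. Over all genes, higher against lower Ribo-seq calls were 225 to 200 in the main fit, 311 to 176 with upper-quartile scaling and 391 to 587 with DESeq2. In TE, members called, against 0, were 5 with DESeq2, 5 without a filter, 4 with the replicate block and 0 to 11 with 1 library left out. Of all genes, against 6, TE calls were 967 with DESeq2, 0 with limma-voom, 2 at a mean count of at least 50, 854 without a filter, 715 with the replicate block and 0 to 2252 with 1 library left out. A replicate block within siRNA, chosen after seeing the data, called 6 of 53 members and 1169 of 12953 genes in TE. Deviations of same-numbered libraries correlated at 0.08 in Input and 0.11 in Ribo-seq over 2 pairs, so the block rests on a shared number. Input and Ribo-seq libraries of the same number correlated at 0.37 with ADAR1 siRNA and at 0.03 with control siRNA, which bears on the block within siRNA.

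Log2 differences near 0 changed sign. METTL1 in Ribo-seq was -0.02 with DESeq2 and its size factors and -0.03 over all 8 libraries. In TE, CTU2 was -0.01 with DESeq2, its size factors or no filter and -0.05 at a mean count of at least 50, where CTU1 was -0.00036. With 1 library left out, the ranges in RNA were -0.34 to 0.05 for CTU2, -0.18 to 0.31 for DUS4L, -0.09 to 0.12 for ELP6, -0.0014 to 0.45 for NSUN3, -0.13 to 0.03 for QTRT2, -0.14 to 0.21 for TRMT10C, -0.09 to 0.30 for TRMT11, -0.18 to 0.03 for TRMT2B, -0.04 to 0.28 for TRMT44, -0.26 to 0.11 for TRMT6 and -0.30 to 0.02 for TRMT61A. In Ribo-seq they were -0.08 to 0.05 for METTL1, -0.20 to 0.12 for NSUN3, -0.30 to 0.06 for THUMPD1, -0.07 to 0.15 for THUMPD2, -0.54 to 0.07 for THUMPD3 and -0.01 to 0.40 for TRMT2B. In TE they were -0.04 to 0.12 for CTU1, -0.26 to 0.16 for CTU2 and -0.01 to 0.17 for TRMT2A. With 1 library left in a group, it is assumed to vary like the others.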

Other observations

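Genes of tRNA transcription and processing, the steps before and beside modification, were looked at in the same fits: RNA polymerase III and its factors, RNase P, the splicing endonuclease and the 3′-end enzymes, 44 genes in all. In RNA 0 were called by edgeR (10 at an unadjusted p under 0.05, 5 higher and 5 lower, where 11.8% and 13.5% of all genes were), with a median log2 fold change of 0.05 (0.00 over all genes). In Ribo-seq 10 of 44 were lower and 1 higher at an unadjusted p under 0.05, where 11.3% and 12.7% of all genes were. The log2 fold change was below 0 in 29 of 44 (45.6% of all genes), with a median of -0.13 (0.05 over all genes). By edgeR 1 fell and 0 rose, where 1.67% of all genes were called lower and 1.88% higher. The gene that fell was ELAC2, the RNase Z that trims the 3′ end of nuclear and mitochondrial tRNA precursors. It had 27.8 and 29.8 TPM in control Ribo-seq and 12.9 and 18.6 TPM after ADAR1 siRNA, or -0.78 ± 0.17 (edgeR adjusted p = 0.0431). Its Input values were 116 and 116 TPM against 105 and 102 TPM. In TE 0 of 44 were called (10 lower and 2 higher at an unadjusted p under 0.05, where 9.48% and 13.2% of all genes were), and the median was -0.14 (0.09 over all genes).

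Among the other tRNA modification genes, several values stood just outside the threshold in Ribo-seq. The 2 genes described here were chosen after their values were seen. THG1L, for example, was about as close (-0.66 ± 0.18, edgeR adjusted p = 0.0639). CDKAL1, the methylthiotransferase of cytosolic tRNA, had a log2 difference of -0.79 ± 0.21 (edgeR adjusted p = 0.0615). NAT10, the acetyltransferase that works with THUMPD1, had -0.70 ± 0.18 (edgeR adjusted p = 0.0617), while THUMPD1 itself had -0.09 ± 0.19.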
